A study of Mus musculus with 12 samples.

Results

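Open chromatin was compared between clone 1 and clone 2 of mouse embryonic stem cells that carry the synthetic construct synHPRT1. The comparison used the ATAC-seq peak lists of all 6 synHPRT1 libraries, 3 per clone, out of 12 libraries in the study. The cells derive from a line labelled BL6xCAST, a cross of the C57BL/6 and CAST mouse strains, and in both clones the construct sits on chromosome X. All groups grew in a medium made mainly of 2i medium with LIF, on gelatin, and received no further treatment in the labels. The other 6 libraries come from 2 clones with synHPRT1R, the reversed form of the sequence, on the same chromosome, 3 libraries per clone. They serve here only to show whether a site was listed in other lines, and for chromosome shares and the same counts. Per the series text, the study asked whether the inserted sequences are open to the transposase in stem cells, with the host genome as the reference. Each clone is a single line, so the integration and any other property of that line cannot be told apart. The labels do not say whether the replicates of a clone were separate cultures, and p-values therefore reflect only how far these libraries spread, which may be a technical matter.

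HPRT1 encodes hypoxanthine phosphoribosyltransferase, the enzyme that returns the purine bases hypoxanthine and guanine to the nucleotide pool. In ATAC-seq, the transposase Tn5 inserts sequencing adapters where DNA is not covered by nucleosomes or other proteins, so peaks of reads mark promoters, enhancers and other open sites. Promoters rich in the dinucleotide CG are open in most cell types, while enhancers differ more between cell types and states. In bulk libraries, a site open in fewer cells and a site less open in each cell cannot be told apart.

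The clones did not differ in the number of listed peaks by more than the spread between libraries. On chromosomes 1 to 19 and the construct, clone 1 listed 46904, 45249 and 61598 peaks in replicates 1, 2 and 3, and clone 2 listed 61718, 47390 and 37112 (two-sided exact permutation p = 1, n = 3 each, with 0.1 as the smallest p that 3 against 3 allows). The background pileup, a measure of depth in reads recovered from the fold values, was 2.03, 2.69 and 3.16 in clone 1 and 3.72, 2.70 and 1.74 in clone 2 (exact permutation p = 0.9). Clone 2 replicate 1 was thus the deepest library and clone 2 replicate 3 the shallowest. Because a weak site enters a list only at sufficient depth, counts are given for the deposited lists and for lists of equal length, in which each library kept the 37112 peaks with the highest −log10 p-value. The labelled cell type was checked on its markers: a peak lay near a start of Nanog, Sox2, Esrrb, Klf4, Zfp42, Tfcp2l1 and Dppa5a in 3 of 3 libraries of each clone, and of Pou5f1 in 2 of 3 of each. Of the fibroblast and feeder markers, Col1a1 and Col1a2 had it in 3 clone 1 and 2 clone 2 libraries, Col3a1, Thy1 and Acta2 in none, and Twist1, Twist2 and Fn1 in all 6.

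On the construct, every clone 1 library listed more peaks than every clone 2 library. Clone 1 replicates 1, 2 and 3 listed 7, 4 and 6 construct peaks, and each clone 2 library listed 1. The means were 5.67 ± 1.53 and 1 ± 0 (SD, n = 3 each, two-sided exact permutation p = 0.1, the smallest possible). In the same order, background pileups were 2.03, 2.69 and 3.16 reads in clone 1 and 3.72, 2.70 and 1.74 in clone 2. A link between depth and the construct counts was not tested. Peaks covered 2845, 2263 and 3404 bp of the construct in clone 1 and 857, 1247 and 952 bp in clone 2 (exact permutation p = 0.1, n = 3 each). At equal list length the counts were 2 in each clone 1 library and 1 in each clone 2 library, with the same smallest p of 0.1 by the exact permutation test. The size of the difference therefore fell from 4.67 to 1 peaks when weak peaks were left out. In the deposited lists, 1 construct region was listed in all libraries of both clones. Every other region was listed in only 1 or 2 of the 3 clone 1 libraries. No construct region was thus listed in all clone 1 libraries and in no clone 2 library.

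**Figure D1:**
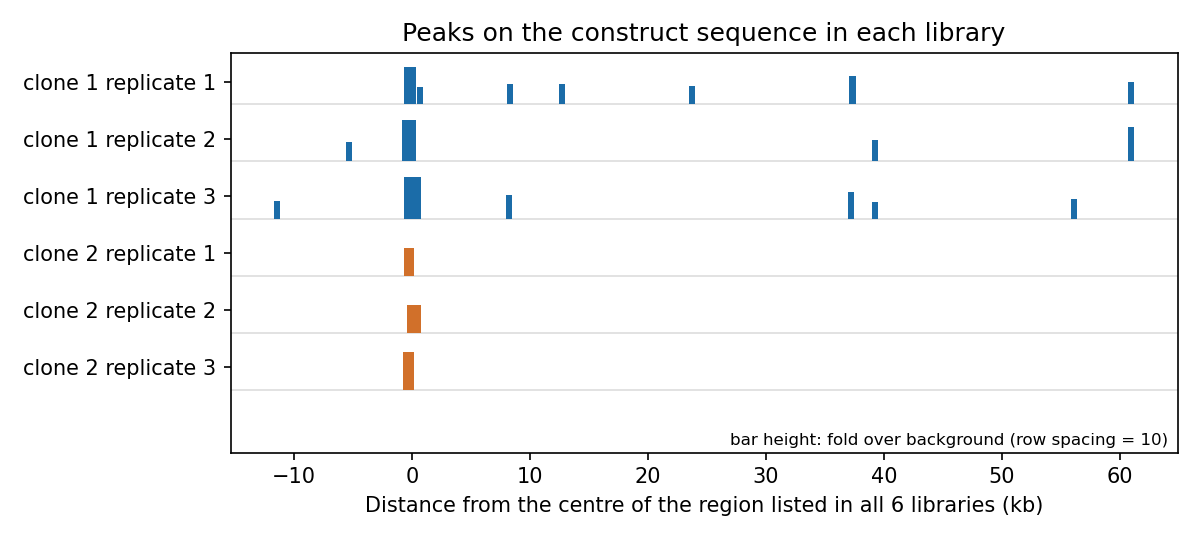
Peaks on the construct in the 6 synHPRT1 libraries, placed by distance in kb from the centre of the region listed in all of them; bar height is the fold over background, bars narrower than 0.5 kb are drawn 0.5 kb wide, and blue is clone 1 and orange clone 2. Every clone 2 row holds 1 bar at the centre, and the clone 1 rows hold 4 to 7 bars.

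Both clones listed the same construct region, positions 30283 to 31906 counted from the start of the construct sequence. The fold at its strongest peak was 6.51, 7.28 and 7.24 in clone 1 and 4.87, 4.86 and 6.57 in clone 2. Clone 2 replicate 3 lay just above the lowest clone 1 library, so the clones overlapped (exact permutation p = 0.2, n = 3 each). This peak outranked by fold 70.4, 81.0 and 80.6% of the deposited list in clone 1 and 54.6, 44.5 and 67.1% in clone 2, with no overlap (77.3 ± 6.02% against 55.4 ± 11.3%, SD, exact permutation p = 0.1). At equal length the ranks were 62.6, 76.9 and 67.8% in clone 1 and 24.5, 29.1 and 67.1% in clone 2, and clone 2 replicate 3 again fell among the clone 1 values (exact permutation p = 0.2). The mean difference of 28.8 percentage points exceeded that of 99.2% of the 22408 regions listed in all 6 equal-length lists, and 177 regions lay above it. In limma over all these regions the construct region had an unadjusted p of 0.0481 and an adjusted p of 0.991. With equal list length, the region at 68061 to 68685 stayed listed in 2 clone 1 libraries, with folds of 4.96 and 4.57 in replicates 1 and 3. The region at 91788 to 92304 stayed in 1, replicate 2, with a fold of 5.96. The remaining 7 clone 1 regions were listed in no equal-length list. What sequence lies at these positions, HPRT1 or vector, was not determined.

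Few protein-coding genes had a peak near a start, or near an end where no start was listed, in 1 clone only. A gene was scored by a peak within 1 kb of a RefSeq transcription start, or of either annotated end where no start was listed. Of 20665 genes on chromosomes 1 to 19, 11116 had a peak in all 6 libraries and 6474 in none. A peak in 3 of 3 clone 1 and 0 of 3 clone 2 libraries was found at 15 genes (0.0726% of those scored), and the opposite at 6 genes (0.0290%). At equal list length the numbers were 26 (0.126%) and 26 (0.126%). Leaving out a library gave 20 to 122 and 8 to 48 genes, and the larger side changed without clone 1 replicate 3 (23 and 48) and without clone 2 replicate 3 (20 and 41). The genes separated in both kinds of list were Tkfc, Lratd2, Ciao3 and Cnnm4 for clone 1 and Selenop and Trpc4 for clone 2. At Tkfc and Lratd2 the same site was listed in all 6 libraries, so these sites themselves did not separate the clones. What differed was whether a peak reached the 1 kb line. In clone 1 replicate 1 the Tkfc peak counted near the start had a fold of 4.49, against 6.37 at the shared site. Of the 15 and 6 genes, 13 and 6 had a site that no library of the other clone listed. A start was listed for 12 of the 15 and 3 of the 6. Lratd2, Ntrk3, Ly6k, Armc12, Mpzl3 and Fam83f had none, so their peaks may lie at either end of the gene.

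The promoters of Ciao3, Cnnm4 and Selenop are printed because a peak that separated the clones in both kinds of list lay over each of them. Ciao3 encodes a component of the cytosolic iron-sulfur cluster assembly machinery. Its site at chr17:25773508-25773987, across the annotated start, had folds of 4.96, 5.14 and 4.81 in clone 1 replicates 1, 2 and 3 and was in no clone 2 list. It was listed in 6 of 6 synHPRT1R libraries, so clone 2 was the exception among the lines. Cnnm4 encodes a transporter of the CNNM family linked to magnesium. Its site at chr1:36471133-36471507 overlapped the 5′ part of the printed promoter, with folds of 4.30, 4.06 and 4.57 in clone 1, and 1 of 6 synHPRT1R libraries listed it. Selenop encodes selenoprotein P, the plasma protein that carries selenium. Its site at chr15:3270524-3270986 had folds of 4.45, 7.03 and 6.57 in clone 2 replicates 1, 2 and 3 and none in clone 1, and 5 of 6 synHPRT1R libraries listed it. The sequences run from 250 bases before to 50 after a start on the plus strand (RefSeq, GRCm38.p6, at chr17:25773526-25773825, chr1:36471347-36471646 and chr15:3270517-3270816), with each CG in capitals.
Ciao3: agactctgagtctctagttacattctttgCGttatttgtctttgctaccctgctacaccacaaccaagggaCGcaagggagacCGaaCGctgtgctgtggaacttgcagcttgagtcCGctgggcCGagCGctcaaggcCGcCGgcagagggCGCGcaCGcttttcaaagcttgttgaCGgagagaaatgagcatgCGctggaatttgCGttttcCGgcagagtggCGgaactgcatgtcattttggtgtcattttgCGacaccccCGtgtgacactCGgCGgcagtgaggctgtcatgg
Cnnm4: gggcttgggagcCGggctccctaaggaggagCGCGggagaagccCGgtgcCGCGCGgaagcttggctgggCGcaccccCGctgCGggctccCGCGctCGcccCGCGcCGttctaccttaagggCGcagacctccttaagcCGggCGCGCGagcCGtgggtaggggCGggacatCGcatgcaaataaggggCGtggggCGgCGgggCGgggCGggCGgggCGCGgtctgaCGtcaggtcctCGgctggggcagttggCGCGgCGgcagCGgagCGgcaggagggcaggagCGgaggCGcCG
Selenop: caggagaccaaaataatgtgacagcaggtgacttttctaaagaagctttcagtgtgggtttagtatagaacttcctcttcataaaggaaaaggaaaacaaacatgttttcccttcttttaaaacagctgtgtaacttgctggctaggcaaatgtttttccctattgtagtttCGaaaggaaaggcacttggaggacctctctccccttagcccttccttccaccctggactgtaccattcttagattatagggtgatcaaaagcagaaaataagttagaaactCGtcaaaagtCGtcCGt
The Ciao3 sequence holds 21 CG and the Cnnm4 sequence 42, against a median of 14 over 20085 protein-coding promoters of the same length on chromosomes 1 to 19, of which 95.6% hold at least 1. The printed Selenop sequence holds 4. The windows of its other listed starts, at chr15:3270561-3270860 and chr15:3270727-3271026, hold 4 and 8. CG reads the same on both strands, and the counts describe these windows only.

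Most of the other separated genes carried weak peaks. For clone 1 they were Mecom and Sik3, a transcriptional regulator and a salt-inducible kinase, Ntrk3 and Chrna3, a neurotrophin receptor and a nicotinic acetylcholine receptor subunit, the potassium channel gene Kcnk18, and Gm1123, Adad2, Ly6k, Wipf3, Lrmda and Mxra7. The site ranked highest by fold among these, at Mecom, had folds of 4.96, 4.87 and 3.61 in the 3 clone 1 libraries, and 2 of 6 synHPRT1R libraries listed it. At Chrna3 the folds were 4.30, 4.60 and 2.89, with 0 of 6 synHPRT1R libraries. For clone 2 they were Trpc4, a cation channel gene, Bmp4, which encodes a secreted morphogen, and Armc12, Mpzl3 and Fam83f. Trpc4 had folds of 4.45, 4.86 and 4.02 at chr3:54156194-54156755, and Bmp4 had 2.88, 3.59 and 4.45. The Bmp4 site was listed in 4 of 6 synHPRT1R libraries. Over the 15 genes the median in-list rank by fold was 33.5%, and over the 6 it was 34.5%, against 79.6% over the 11116 genes with a peak in all 6 libraries.

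Across all sites, few regions separated the clones, and the direction of the excess depended on list length. Merging the 6 lists gave 83925 regions, of which 26356 (31.4%) were listed in all 6 libraries. Of all regions, 302 (0.360%) were listed in 3 of 3 clone 1 and 0 of 3 clone 2 libraries, and 176 (0.210%) the other way. In the 56614 regions of the equal-length lists the numbers were 240 (0.424%) and 265 (0.468%). Only 44 clone 1 and 32 clone 2 regions were separated in both kinds of list. In the synHPRT1R libraries, the same count gave 580 and 138 of 76683 regions (0.756% and 0.180%) from deposited lists. At equal length it gave 285 and 269 of 63322 regions (0.450% and 0.425%). A single region cannot be called with 3 libraries against 3, as Fisher's exact test does not go below 0.1. Without clone 2 replicate 3 the counts were 393 and 1147, without clone 1 replicate 3 they were 544 and 792, and without clone 2 replicate 1 they were 1429 and 309.

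**Figure D2:**
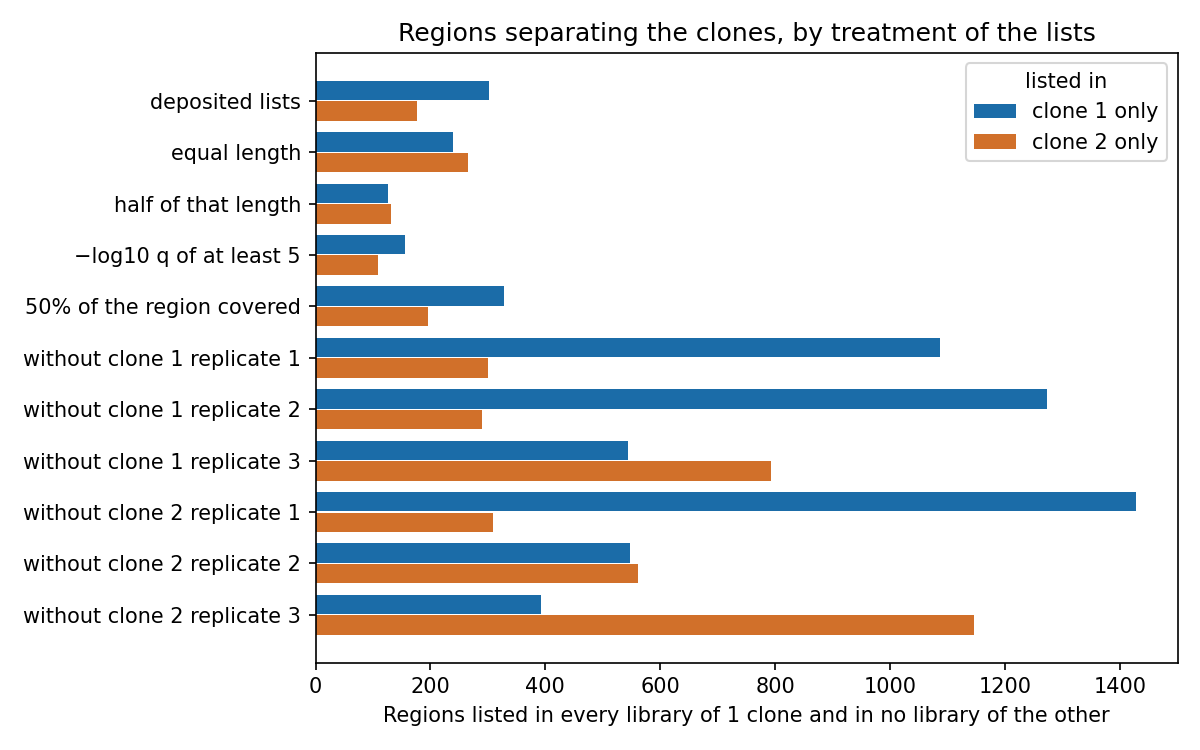
Number of regions listed in every library of 1 clone and in none of the other, for clone 1 (blue) and clone 2 (orange), with each treatment of the lists; bars are counts, without error. The deposited lists gave 302 and 176, lists of equal length 240 and 265, and leaving out a library moved the larger count between the clones.

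Separated regions were narrow and weak. The median −log10 q-value was 4.35 in the 302 clone 1 regions, 4.15 in the 176 clone 2 regions and 4.38 in 7250 regions that were listed in 3 libraries taken from both clones. It was 13.2 in the regions listed in all 6 libraries. Median widths were 447.5, 485.5, 478 and 964 bp in the same order. Of the clone 1 regions 8.94% lay within 1 kb of a gene start, and of the clone 2 regions 7.39% did, against 9.08% of the mixed regions and 40.1% of those in all 6 libraries. Here too, either annotated end stood in where no start was listed. At least 1 synHPRT1R library listed 81.1% of the clone 1 regions and 85.2% of the clone 2 regions, compared with 87.0% of the mixed ones. Pairs of libraries of the same clone shared 66.2 ± 1.92% of their equal-length peaks (SD over 6 pairs), and pairs from different clones 66.1 ± 2.55% (9 pairs). Libraries of a clone were thus no more alike by this measure than libraries of different clones.

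The clone 1 regions with the highest median −log10 q-value, among those separated in both kinds of list, were mostly inside genes or distal. The first, at chr3:108730275-108730831, lay 7944 bp from Gpsm2, a gene of mitotic spindle orientation. Its folds were 4.63, 6.23 and 7.22 in clone 1 replicates 1, 2 and 3, and 4 of 6 synHPRT1R libraries listed it. The next, at chr11:35811565-35811976 inside Rars, the gene of arginyl-tRNA synthetase, had folds of 6.28, 5.14 and 6.50 and was in 5 of 6 synHPRT1R lists. A region at chr2:91101510-91101867 inside Spi1, which encodes the myeloid transcription factor PU.1, had folds of 5.62, 4.87 and 5.29 and was in 1 synHPRT1R list. The region at chr8:68766678-68767023, 26906 bp from the Integrator subunit gene Ints10, had folds of 5.29, 5.14 and 6.26 and was in no synHPRT1R list, so clone 1 alone among the lines listed it. The others lay inside Gsto2, Kdm3b, Adgrb3 and Mrpl15, 6479 bp from Lrrc37a and 1715 bp from Arhgap40, and distal to Sema3e (60334 bp) and Fhit (222305 bp). Among them, Gsto2 encodes a glutathione transferase, Kdm3b a histone H3K9 demethylase and Mrpl15 a mitochondrial ribosomal protein. The median folds of these 12 regions ran from 4.34 distal to Sema3e to 6.28 in Rars.

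For clone 2 the first region lay at chr2:19017922-19018370, 19631 bp from Pip4k2a, a phosphoinositide kinase gene. Its folds were 6.14, 5.67 and 7.67 in clone 2 replicates 1, 2 and 3, and 3 of 6 synHPRT1R libraries listed it. A region at chr8:127588315-127588749 inside Pard3, a cell polarity gene, had folds of 5.42, 6.10 and 4.31 and was in no synHPRT1R list. Another, at chr12:112653086-112653590, lay 231 bp outside the annotated end of Akt1, the gene of a growth-signalling kinase, with folds of 5.51, 6.18 and 4.38. A region 5123 bp from Endod1, at chr9:14348465-14348867, had folds of 4.87, 6.49 and 4.38 and was also absent from the synHPRT1R lists. The Selenop promoter site was among the 12, as was a site near the start of 9930012K11Rik. The rest lay inside Nrxn3 and Nos1ap, 3486 bp from Nfkbiz, 16285 bp from Cep170 and 16583 bp from Fbxo27, and distal to Ahr (139462 bp). Here Nrxn3 encodes a synaptic adhesion protein, Nfkbiz an atypical inhibitor of NF-κB and Ahr the aryl hydrocarbon receptor. Median folds ranged from 4.87 in the regions assigned to Nfkbiz, Endod1 and Ahr to 6.57 at Selenop.

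In none of the regions open in both clones did the rank of the peak differ by more than the test requires. The value compared was the in-list rank by fold at equal list length, as a normal score, in limma. Of 22408 regions listed in all 6 libraries 0 (0%) passed an adjusted p of 0.05, and 1044 (4.66%) had an unadjusted p under 0.05 by the same test. The smallest adjusted p was 0.991. All clone 1 libraries ranked above all clone 2 libraries at 1009 regions (4.50%), and the reverse held at 1146 (5.11%). Rank correlations over these regions were 0.750 ± 0.022 between libraries of a clone (6 pairs) and 0.751 ± 0.032 between clones (9 pairs), as a description across regions that share library and depth. In a simulated set with 100 regions shifted by 1 and 100 by 2 normal scores, this test recovered 17 and 93 of them, with 3 false calls. Most shifts of the smaller size would thus have been missed. Recovery after adjustment depends on how many regions shift together, so a larger shift in a few regions could be missed as well.

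**Figure D3:**
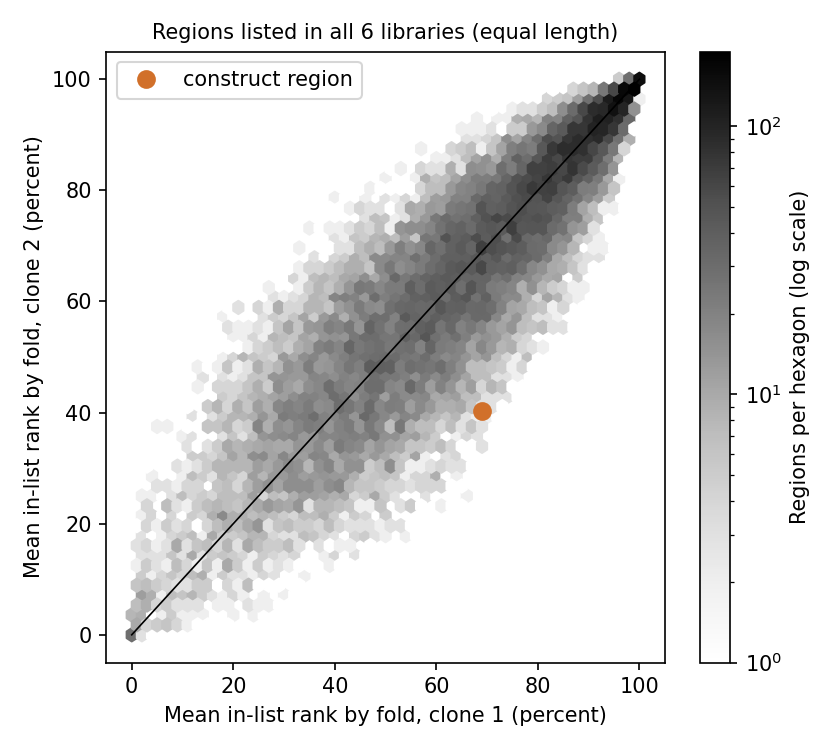
Mean in-list rank by fold, in percent, of the 22408 regions listed in all 6 equal-length lists, clone 1 on the x axis and clone 2 on the y axis, with shade for the number of regions per hexagon (log scale) and the diagonal as a line. The construct region, in orange, lies below the diagonal, at 69.1% in clone 1 and 40.3% in clone 2.

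The regions with the smallest p are given as values, since none passed. A site at chr11:113511706-113512876 inside Slc39a11, a zinc transporter gene, outranked 97.1, 95.5 and 97.4% of its list in clone 1 and 78.5, 78.8 and 70.7% in clone 2. The site at chr9:84888937-84889514, distal to Tent5a, stood at 77.4, 82.9 and 92.1% in clone 1 and at 35.9, 29.1 and 40.7% in clone 2. Inside Prkar2b, which encodes a regulatory subunit of protein kinase A, the ranks were 64.7, 85.3 and 55.8% against 24.5, 13.3 and 2.23%. Sites 1827 bp from Emc2 and 3085 bp from Olfr419 had the same direction. Higher in clone 2 was a site near the start of Btrc, a gene of a ubiquitin ligase subunit, with 78.7, 90.1 and 81.2% in clone 1 and 95.6, 98.9 and 98.5% in clone 2. A site 1673 bp from Tmem40 stood at 3.39, 3.23 and 3.29% in clone 1 and at 32.3, 45.2 and 51.8% in clone 2. A site near the start of Zfp945, one 17707 bp from Csmd3 and one 167281 bp from Fbxl17 had the same direction. In each of these 10 regions the clones did not overlap, which the choice by smallest p favours, and all had an adjusted limma p of 0.991. Over all 22408 regions the clones did not overlap at 4.50% with clone 1 higher and at 5.11% with clone 2 higher.

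The share of peaks per chromosome passed the test on chromosomes 7 and 8, where it was slightly larger in clone 1. Of the peaks in equal-length lists, 6.79, 6.91 and 6.91% lay on chromosome 7 in clone 1 and 6.62, 6.55 and 6.53% in clone 2. For chromosome 8 the shares were 5.41, 5.38 and 5.41% in clone 1 and 5.20, 5.20 and 5.15% in clone 2. On both chromosomes all clone 1 libraries lay above all clone 2 libraries. The log2 differences were 0.065 (SE 0.016) and 0.060 (SE 0.015), and each had an adjusted p of 0.0237 in limma over 19 chromosomes, so that 2 of 19 (10.5%) passed. Chromosome 12 had the largest difference in the other direction, with 4.38 ± 0.056% in clone 1 and 4.53 ± 0.011% in clone 2 (SD over 3 libraries each), and an adjusted limma p of 0.0836. Both calls were lost when any of 4 libraries was left out, clone 1 replicate 2, clone 1 replicate 3, clone 2 replicate 1 or clone 2 replicate 3 (adjusted limma p of 0.110, 0.162, 0.0821 and 0.128), with log2 differences between 0.056 and 0.072. With −log10 q-values of 5 or more, the call on chromosome 8 was lost (adjusted limma p of 0.0724). With the median rank of shared regions per chromosome in place of the share of peaks, both had an adjusted limma p of 0.542. With the replicate number as a block, both calls were lost as well (adjusted limma p of 0.163 each).

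**Figure D4:**
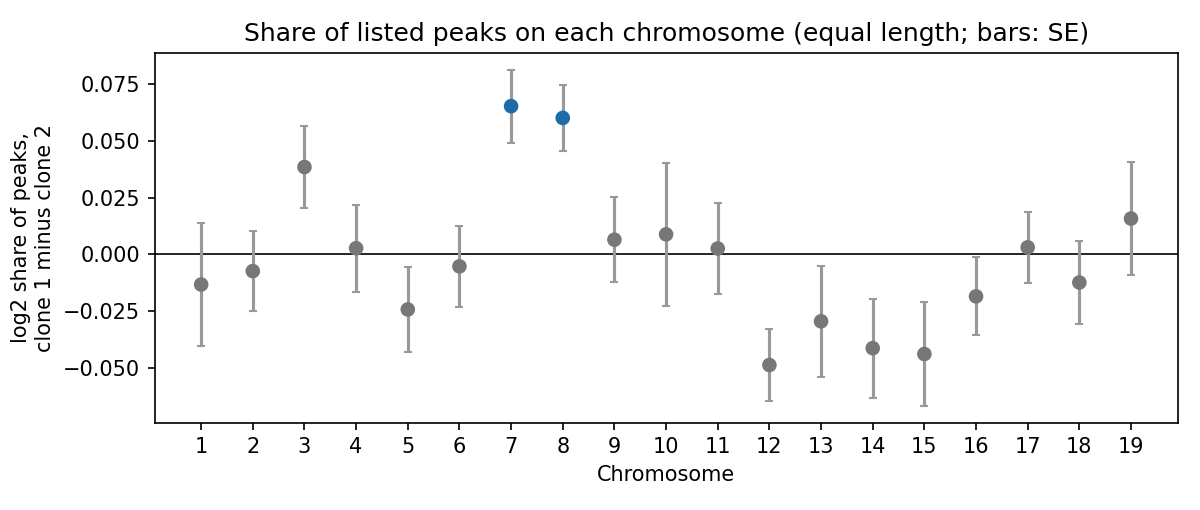
Difference in the log2 share of listed peaks between clone 1 and clone 2 for each of 19 chromosomes at equal list length; points are the limma estimates and bars their SE, with chromosomes of adjusted p under 0.05 in blue. Chromosomes 7 and 8 lie at 0.065 and 0.060, and chromosome 12 is lowest at -0.049.

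The number of peaks was also counted in windows of 10 Mb, as a description that the chromosome totals fix in part. Of 15 windows on chromosome 7, 14 had a higher mean number of peaks in clone 1, and in 6 all clone 1 libraries lay above all clone 2 libraries. On chromosome 8, 12 of 13 windows had the higher mean in clone 1 and 3 did not overlap. Chromosome 3, which did not pass (adjusted limma p of 0.285), had the higher mean in clone 1 in 15 of 16 windows, with 1 that did not overlap. Over all 251 windows, clone 1 had the higher mean in 120, with 15 (5.98%) non-overlapping windows higher in clone 1 and 12 (4.78%) higher in clone 2. The synHPRT1R clones had mean shares of 6.42 ± 0.148 and 6.64 ± 0.062% on chromosome 7 and of 5.21 ± 0.080 and 5.33 ± 0.216% on chromosome 8 (SD, n = 3 each). On chromosome 7 the 3 libraries of synHPRT1 clone 1 also lay above all 6 synHPRT1R libraries, the highest of which had 6.70%. The share on chromosome 8 ran from 5.08 to 5.45% between libraries of synHPRT1R clone 2 alone, a wider range than that over all 6 synHPRT1 libraries.

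**Figure D5:**
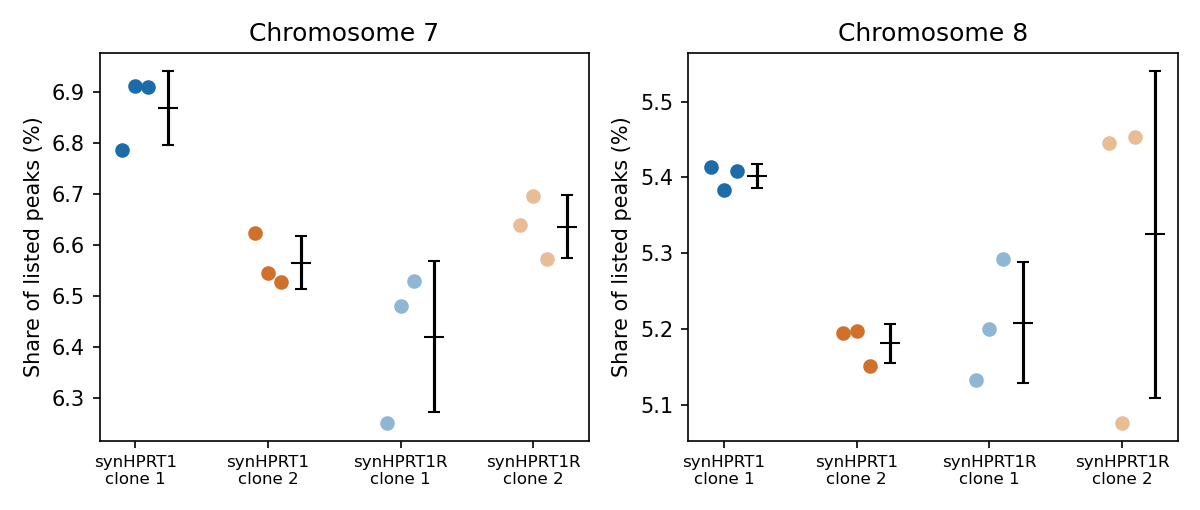
Share of listed peaks on chromosomes 7 and 8, in percent, in the 3 libraries of each of 4 clones (coloured points), with the mean and SD in black; the y axes do not start at 0. The synHPRT1 clones do not overlap on either chromosome, and synHPRT1R clone 2 spans 5.08 to 5.45% on chromosome 8.

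Genes of stem cell and lineage programmes were read from 22 gene lists. In the deposited lists 0 members had a peak in all libraries of 1 clone and none of the other. Over all genes 0.0726% and 0.0290% did, so a count of 0 in lists of this size is near the background and says nothing particular about the members. Each list's share of members with a peak had an exact permutation p of at least 0.4 between the clones (n = 3 each, smallest possible p 0.1). Of 21 measured genes of naive and general pluripotency, 16, 21 and 21 had a peak in clone 1 and 21, 21 and 18 in clone 2. The low value of 16 came from clone 1 replicate 1 and that of 18 from clone 2 replicate 3. These had the lowest background pileup of their clones, but a link with depth was not tested. Not every list had its lowest count in these libraries. Of 11 genes of formative and primed pluripotency, such as Fgf5, Otx2 and the DNA methyltransferase gene Dnmt3b, 11, 10 and 11 had a peak in clone 1 and 11, 10 and 9 in clone 2. Germline genes that DNA methylation silences varied widely within each clone, with 8, 6 and 13 of 15 in clone 1 and 14, 9 and 9 in clone 2. Among them, Mael, of the piRNA pathway, had a peak in 3 clone 1 libraries and 1 clone 2 library, and Ddx4, a germ cell RNA helicase gene, in 1 and 3. Of 12 mesoderm genes 7, 11 and 11 had a peak in clone 1 and 12, 10 and 6 in clone 2. Of 12 endoderm genes the numbers were 7, 8 and 10 against 8, 9 and 6, and of 12 trophoblast genes 6, 8 and 11 against 11, 8 and 8. Of 13 fibroblast and feeder genes they were 6, 6 and 7 against 6, 6 and 4.

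Of 18 genes of purine synthesis and salvage, the pathway of the HPRT1 enzyme, 15, 16 and 15 had a peak in clone 1 and 16, 15 and 15 in clone 2. Of 28 imprinted genes 24, 26 and 26 had a peak in clone 1 and 26, 26 and 23 in clone 2. Of 57 clustered protocadherin genes, which encode neuronal adhesion proteins, 38, 38 and 45 did in clone 1 and 42, 35 and 31 in clone 2. The Hox genes, which pattern the body axis, had 11, 11 and 15 of 22 against 17, 12 and 8. None of 10 genes taken as silent in stem cells, among them Alb, Ins2 and Cd3e, had a peak in any of the 6 libraries. Over all 20665 genes, 62.8 ± 2.37% had a peak in clone 1 and 61.7 ± 4.10% in clone 2 (SD, n = 3 each, exact permutation p = 1). At equal list length, 2 list members were separated: Impact, an imprinted gene, for clone 1, and the zinc finger gene Zfp879 for clone 2. Over all genes 26 (0.126%) were separated in each direction at that length, so these 2 say nothing particular about the lists. In the deposited lists Impact had a peak in 3 clone 1 and 2 clone 2 libraries, and Zfp879 in 1 and 3, so neither was separated there.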

How the data were processed

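ATAC-seq peak lists of the 6 synHPRT1 libraries were analysed, with the 6 synHPRT1R lists read only for presence, chromosome shares and the same counts. Per the labels' protocols, 50000 cells were tagmented per library. Tools in the submitters' processing notes are MACS2 2.1.0, Bowtie2 2.2.9, SAMtools 1.9, bcl2fastq 2.20 and deepTools 3.5.0, with GRCm38 or mm10 as build. Not given in the sources used here were their settings, read shifting, duplicate handling and any blacklist. Each library has its own deposited list, so peaks were called per library. The deposited score and the summit offset served only to read the layout. The authors' deposited fold is a ratio of summit pileup to local background, and the −log10 p-value and q-value deposited with it belong to that summit, with 1.30 as the lowest −log10 q-value. These are the authors' values per peak and were used to rank or filter within a list. Read counts were not used, and a site missing from a list counts as not detected there.

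Peaks on chromosomes 1 to 19 and the construct sequence were merged at 1 bp overlap. Lists of equal length kept the 37112 peaks with the highest −log10 p-value. The background pileup was read from the spacing of the folds, with 46.4 to 57.7% of a list's peaks on such steps within 0.002. Ranks of the best peak per region became normal scores and, like the log2 chromosome shares, were compared with limma 3.58.1 in R 4.3.3 with Benjamini-Hochberg adjustment at 0.05, tested on simulated data. Single values per library went into exact permutation tests, two-sided, over 20 splits in Python 3.11.15. Genes, starts and promoters came from RefSeq tables of GRCm38.p6; 16457 of 20665 genes had a listed start. Whether a peak was exonic or intronic was not determined.

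Named regions and genes were those separated in both kinds of list, up to 12 per direction by median −log10 q-value (regions) or in-list rank (genes), members of a gene list separated in either, and the 5 regions per direction with the smallest rank p, as none passed. The other separated genes were named after their values were seen. The members and gene lists were chosen with earlier results of these data known. Alternatives covered list length, −log10 q-value, overlap, chromosomes X and Y, distance from genes, column ranked, list length as a covariate, the replicate number as a block and leaving out each library.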

Additional observations from a re-analysis of the deposited data

Results flagged for a closer look

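Chromosome X, which carries the construct and was left out of the main counts, had 2305 regions. Of these, 6 were listed in all 3 clone 1 libraries and in no clone 2 library, and 3 the other way. These shares were no higher than the 0.360% and 0.210% of 83925 regions in the main counts. The 6 lay inside Rhox2e, a homeobox gene, and Pcyt1b, a phosphatidylcholine synthesis gene, and 19865 bp from Gnl3l, 51557 bp from Rbbp7, 53694 bp from Gpr165 and 97059 bp from Tmem47. The 3 lay inside Bmx, 91261 bp from Dach2 and 188761 bp from Tmsb4x. The regions in Rhox2e and Pcyt1b were each listed in 4 of 6 synHPRT1R libraries. On chromosome Y there were 0 and 0 of 196 regions. These were drawn out because they lie in data that the main counts do not use, and no test was made.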

How the results depend on the processing

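The larger side of the region counts changed with the lists: clone 1 only and clone 2 only numbered 127 and 132 in lists of 18556 peaks, 155 and 108 with −log10 q-values of 5 or more, 240 and 265 at equal length, and 393 to 1429 and 290 to 1147 when a library was left out. Fewer libraries must match there, so a rise alone shows no instability. For genes these were 26 and 26 at equal length, 25 and 10 with either annotated end for every gene (chosen after seeing the data), and 20 to 122 and 8 to 48 without a library. Of the 24 regions named as separated, 16 stayed so with −log10 q-values of 5 or more, 19 at 50% coverage and 0 in lists of 18556 peaks. The difference in peak number, 2510 in favour of clone 1, became -2664 without clone 1 replicate 3 and -3304 without clone 2 replicate 3, and ran from -3304 to 8999 over all libraries left out. The construct difference was 1 peak at equal length, 1.33 with −log10 q-values of 5 or more and 4 to 5.5 when a library was left out; its exact permutation p of 0.1 is the smallest these designs allow and says nothing about stability.

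The limma count of ranked regions was 0 in all 12 alternatives, with 799 to 1140 regions under an unadjusted p of 0.05. Chromosome shares gave 1 call with −log10 q-values of 5 or more (chromosome 7, adjusted p = 0.0337; chromosome 8, 0.0724), 0 with the median rank per chromosome and 0 to 2 when a library was left out. Same-numbered libraries of the clones did not deviate together (correlations of -0.018, -0.003 and -0.048), so the numbers name libraries and pair nothing; with the replicate block, 0 ranked regions and 0 chromosomes were called (adjusted limma p = 0.163 for chromosomes 7 and 8). Single named ranks were not recomputed on deposited lists, whose merged regions differ. A site missing from a list may still be open: 31.4% of regions were listed in all 6 deposited lists and 39.6% at equal length.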

Other observations

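In a merge of all 12 lists into 95142 regions, a few sites were absent from 1 clone alone while all 9 other libraries listed them. Clone 1 of synHPRT1 lacked 5, which lay near the start of Foxp1, a forkhead transcription factor gene, inside Napepld and Rps15a, and distal to Mtss1 and Etnk1. Clone 2 lacked 5, the Ciao3 start, a site inside Morc1, a gene of germ cell development, another inside the adhesion gene Nrcam, one 1272 bp from the histone chaperone gene Chaf1b and one distal to Npsr1. The synHPRT1R clones 1 and 2 lacked 7 and 38 sites by the same count. Other sites were listed by every library of a single clone and by none of the 9 others. Of the 95142 regions, these were 57 and 26 in synHPRT1 clones 1 and 2 and 31 and 14 in synHPRT1R clones 1 and 2. For synHPRT1 clone 2 they included a site inside Rarb, a retinoic acid receptor gene, at chr14:16447504-16447856 with folds of 4.05 to 6.94. Another lay 46548 bp from Myc, with folds of 3.56 to 4.05. Their median −log10 q-values were 7.59 and 4.89, so neither was the strongest of the 26, as the site inside Pard3 had 10.95.

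Separated regions were also counted in fixed windows of 1 Mb, and windows with 3 or more were recorded. With so few separated regions, few such windows can arise, so the count does not show how close they lay. In the deposited lists 2 windows held 3 separated regions, both for clone 1 only. These windows lay on chromosome 17, with 27 regions in all, near Pde10a and Prr18, and on chromosome 19, with 46 regions, near Exoc6 and Myof.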
